A study of Vitis vinifera with 42 samples.

Results

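The transcripts described here come from 9 of the 28940 genes measured in Cabernet Sauvignon grape berries, 3 that encode seed storage proteins and 6 that encode late embryogenesis abundant (LEA) proteins. The 9 genes are a listed set, chosen by their FPKM in these same 42 libraries together with their annotation, so their levels and differences are a description. No p-value is given for any single one of them. Where they are counted by the call applied to all genes, the count stands beside the share of all genes called. Where they are counted by an unadjusted p under 0.05, no such share is given. Nothing is read from either kind of count, since both use values that the choice of the genes had used. FPKM is the number of sequenced fragments of a gene scaled to its length and to the size of the library. In T1, paper bags enclosed the clusters from 3 weeks after flowering, which is stage E-L 29 of the modified Eichhorn-Lorenz scale, up to harvest (E-L 38). In T8 the bags were put on later, at E-L 35, and taken off again at the next stage, E-L 36. T2 clusters were never bagged and are the control. T1 was sampled at E-L 31 and then from E-L 35 to 38, T8 from E-L 36 to 38, and T2 at the T1 stages and also at E-L 29. The study treats T8 berries of E-L 36 as bagged and those of E-L 37 as exposed again. E-L 35 marks the onset of véraison, when berries begin to soften and colour. The 14 groups have 3 biological replicates each (A, B and C), every one a pool of berries from several vines of the same vineyard, and seeds were taken out before RNA extraction.

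Seeds fill their embryo and endosperm with storage proteins, mainly 2S albumins and globulins of the 7S and 11S classes, which feed the seedling after germination. LEA proteins, including the dehydrins, accumulate later, as the seed dries, and shield membranes and proteins from the loss of water, and several of them are also made in leaves and fruit under drought, cold or abscisic acid. Storage protein genes are typically active in seeds only. In bulk tissue, fewer cells of a type cannot be told apart from less RNA per cell.

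The total FPKM of a library ranged from 561036 to 672526, with 21090 to 23537 genes above 0. The study lists the number of clean reads of each library. No read counts per gene were used, so the number of reads behind each FPKM value is unknown. Zeros are reported as they stand in the table. All 9 genes passed the filter of a mean of 1 FPKM in some group. The summed FPKM of 26 berry skin and flesh genes lay between 316 and 1179 in the libraries of E-L 31 and between 9513 and 16914 in those of E-L 35 or 36. It lay between 2250 and 6375 in those of E-L 37 or 38. A single ripening-related gene of the list (VIT_206s0004g02560) reached a group mean of 12653 FPKM. The sum therefore moves with the stage, and whether the markers match the labelled tissue was not tested. Several libraries stood above the others of their group in the 9 genes. The mean of the 9 genes was highest in replicate C in 7 of the 14 groups, in replicate B in 6 and in replicate A in 1, and T2 replicate C at E-L 31 and T1 replicate C at E-L 35 were the libraries farthest above their group. Nothing in the labels ties replicates of a letter together.

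The 2S albumin-like gene (VIT_219s0177g00090), a small sulphur-rich storage protein, was the most abundant member in the groups of E-L 29 and 31, while dehydrin 1a was above it in all later groups. At E-L 31 it had 5861, 31909 and 21125 FPKM in T1 replicates A, B and C, against 155, 154 and 5386 FPKM in T2. All 3 T1 libraries lay above all 3 T2 libraries, but T2 replicate C came close to T1 replicate A, while T2 replicates A and B were far below. In T1 replicates B and C it was the most abundant of all transcripts, with 5.33% and 3.55% of the library's total FPKM. From E-L 35 on it was nearly absent from T1 and T2, with 55.93 FPKM in T1 replicate C at E-L 35 the only value above 7 FPKM. At E-L 36 it had 352, 105 and 4.34 FPKM in T8, against 2.70, 0 and 0.25 FPKM in T1 and 0, 0 and 0.77 FPKM in T2. T8 was above both, and spread widely among its own replicates.

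The basic 7S globulin-like gene (VIT_214s0128g00200), whose soybean relative is stored in the seed, was the second most abundant at E-L 31, with 3851, 12974 and 9008 FPKM in T1, against 166, 74.6 and 3736 FPKM in T2. The groups did not overlap, although T1 replicate A and T2 replicate C were almost level. Unlike the albumin it stayed high in T8, with 725, 399 and 179 FPKM at E-L 36, against 1.52, 0 and 20.15 FPKM in T1 and 0, 0 and 10.3 FPKM in T2. A stage later, at E-L 37, it had 258, 319 and 284 FPKM in T8, against 2.21, 0 and 76.81 FPKM in T1 and 14.65, 26.57 and 0 FPKM in T2. Every T8 library exceeded every T1 and T2 library at both stages.

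The gene for a vicilin-like antimicrobial peptide precursor (VIT_206s0004g03260), a member of the vicilin storage family named for peptides first found in macadamia, was the lowest storage member at E-L 31 and, like the other 2, highest in T1 at that stage. At E-L 31 it had 93.4, 598 and 212 FPKM in T1, against 5.11, 1.49 and 74.3 FPKM in T2. At E-L 36 it had 54.0, 49.2 and 32.8 FPKM in T8, against 0.11, 0 and 4.61 FPKM in T1 and 0, 0 and 5.26 FPKM in T2. In this gene the 3 T8 libraries were close to each other, and their lowest value was several times the highest of T1 or T2.

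**Figure D1:**
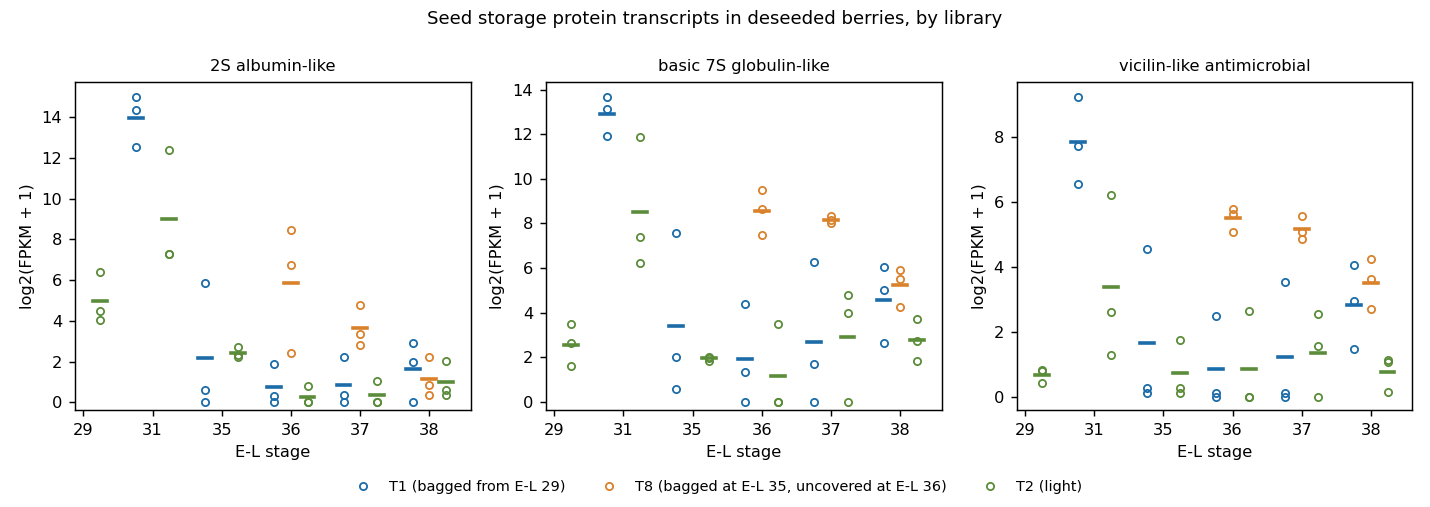
The 3 storage protein transcripts in every library, as log2(FPKM + 1) against E-L stage, with T1, T8 and T2 side by side at each stage, an open point for each library and a bar for the mean of 3. T1 at E-L 31 is highest in each panel, and T8 stands above T1 and T2 at E-L 36 and 37.

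Set against each other at E-L 31, T1 exceeded T2 by 4.96 ± 1.30 in the 2S albumin, 4.41 ± 1.54 in the 7S globulin and 4.45 ± 1.09 in the vicilin-like gene (difference in log2(FPKM + 1) ± SE of the limma fit, n = 3 each). A pseudocount understates the change of low genes, so these differences hold on that scale only. Among the LEA genes the differences were smaller, from 1.15 ± 0.93 in dehydrin 1a to 3.59 ± 1.30 in Dc3, and the median over the 9 members was 2.39, against 0 over all 21902 genes tested. In 5 members the difference passed the call used throughout (an adjusted p under 0.05 in limma and a difference of 1 or more on the log2 scale), where 2.71% of all genes were called higher. In 4 members the 3 T1 libraries lay above the 3 T2 libraries, as they did in 13.7% of all genes. Since the members were chosen on these values, nothing is read from those counts. Without T2 replicate C, 6 members were called and the median was 3.07, and without T2 replicate A, T2 replicate B, T1 replicate B or T1 replicate C in turn only 2 were.

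The LEA transcripts followed a different order of stages and treatments, with their highest levels in T8. Dc3 (VIT_209s0002g06070), named for a carrot LEA gene, had 271, 257 and 109 FPKM in T8 at E-L 36, against 0.99, 0 and 15.8 FPKM in T1 and 0.95, 0.72 and 17.5 FPKM in T2. T1 and T2 overlapped, each with a single library above 1 FPKM, replicate C. At E-L 31 the same gene had 53.9, 293 and 127 FPKM in T1, against 6.62, 1.74 and 55.8 FPKM in T2, and there T1 replicate A and T2 replicate C overlapped.

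Dehydrin 1a (VIT_204s0023g02480), a hydrophilic LEA protein of a class induced by drought and cold, was above 10 FPKM in every library. It had the highest mean of the LEA members in every group but T1 at E-L 31, where it averaged 67.4 FPKM and Dc3 158 FPKM. Dehydrin 1a had 2274, 1954 and 1258 FPKM in T8 at E-L 36, against 47.5, 19.0 and 285 FPKM in T1 and 65.6, 18.6 and 171 FPKM in T2. T8 at E-L 37 was almost as high, with 1155, 1330 and 1361 FPKM, against 173, 155 and 549 FPKM in T1 and 260, 679 and 84.6 FPKM in T2. By E-L 38 the gap had closed to 212, 852 and 507 FPKM in T8, against 209, 946 and 376 FPKM in T1 and 273, 253 and 244 FPKM in T2, and the 3 groups overlapped. Within T2 its mean was 13.3 ± 3.66 FPKM at E-L 29, then 24.5, 50.5, 85.1 and 341 FPKM in the order of the stages, and 257 ± 15.1 FPKM at harvest (SD, n = 3), so in the control its mean was highest in the last 2 stages. There the storage transcripts averaged 0.35 and 1.29 FPKM (2S albumin), 13.7 and 6.82 FPKM (7S globulin) and 2.29 and 0.81 FPKM (vicilin-like).

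The LEA protein-like gene (VIT_203s0038g04390) had 329, 255 and 146 FPKM in T8 at E-L 36, against 0.73, 0.14 and 25.8 FPKM in T1 and 0, 0.14 and 15.0 FPKM in T2. The D-29-like gene (VIT_205s0020g00840), named for a cotton LEA gene, had 210, 152 and 96.4 FPKM in T8 at E-L 36, against 23.8, 12.6 and 34.7 FPKM in T1 and 15.6, 7.55 and 15.7 FPKM in T2. Both genes had their 3 T8 libraries above every T1 and T2 library. The pair of genes named for the cotton LEA gene D-34 were the lowest LEA members in T8: VIT_214s0030g01470 averaged 43.4 ± 14.9 FPKM in T8 at E-L 36, against 0.75 ± 1.30 FPKM in T2, and VIT_205s0020g03530 averaged 73.5 ± 29.4 FPKM in T8, against 1.67 ± 2.56 FPKM in T2 (SD, n = 3 each).

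**Figure D2:**
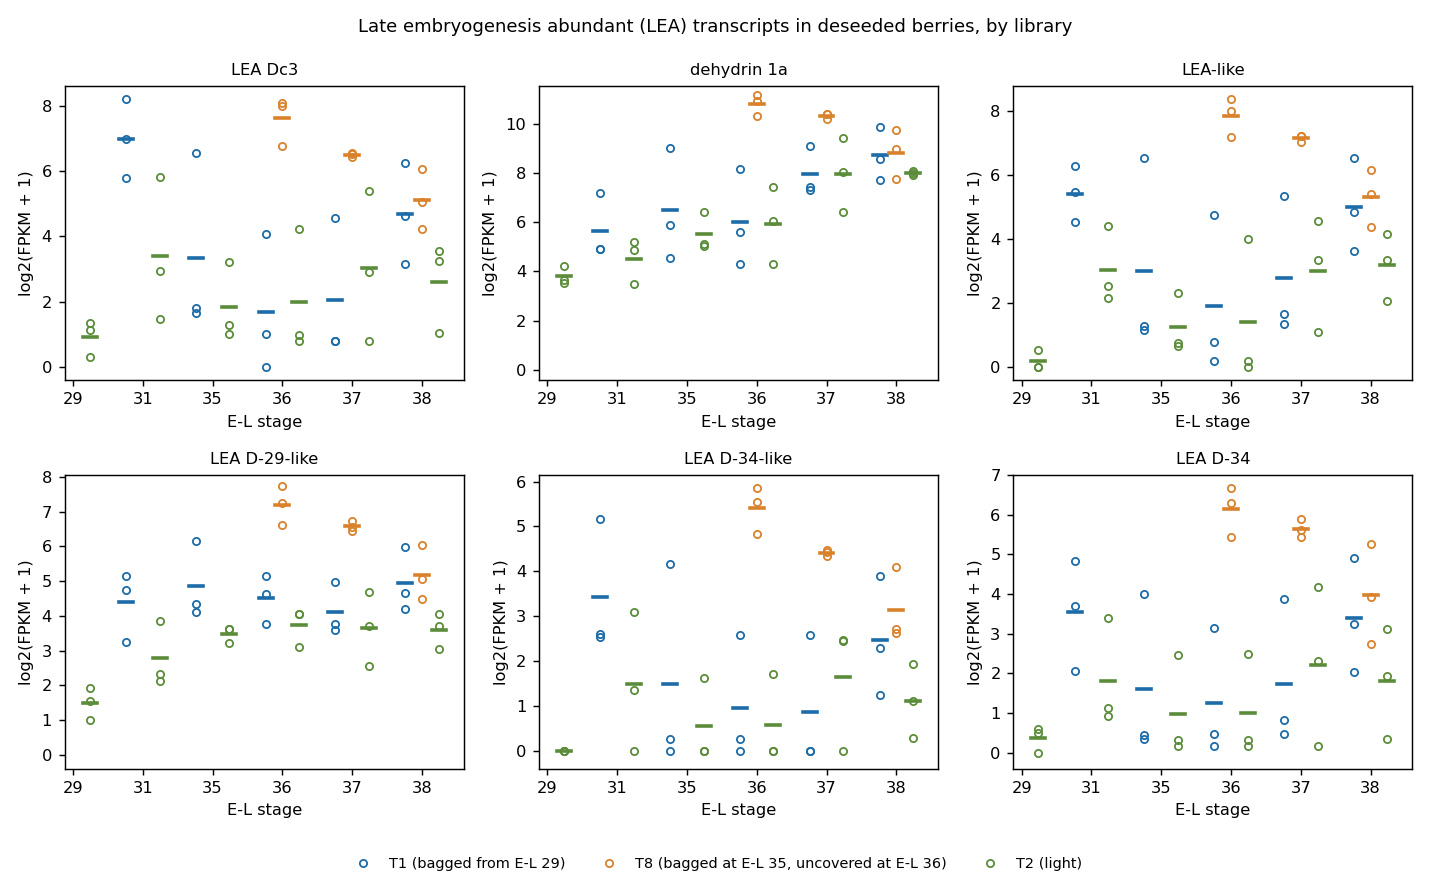
The 6 LEA transcripts in every library, as log2(FPKM + 1) against E-L stage, with T1, T8 and T2 side by side, an open point for each library and a bar for the mean of 3. At both E-L 36 and 37 each T8 library lies above the T1 and T2 libraries of the same stage in each panel, and single T1 and T2 libraries lie far above the rest of their group, such as T1 replicate C at E-L 35 (518.87 FPKM of dehydrin 1a).

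At E-L 36 all 9 members were higher in T8 than in T2, by 3.46 to 7.38 on the log2 scale with a median of 5.14, against 0.07 over all genes tested. The largest difference was that of the 7S globulin (7.38 ± 1.54) and the smallest that of the D-29-like gene (3.46 ± 0.58). All 9 were called, where 3.67% of genes were, and in all 9 the T8 libraries lay above the T2 libraries, as in 22.5% of genes. T8 also exceeded T1 at that stage in all 9, by 2.68 to 6.63 with a median of 4.87, and 9 were called where 2.79% of genes were. Both comparisons use the same 3 T8 libraries, and T1 and T8 are set against the same T2 libraries at each stage. Without any single library, 8 or 9 members were called against T2 and 6 to 9 against T1.

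After E-L 36 the T8 levels came closer to the other groups. At E-L 37, T8 exceeded T2 by 2.37 to 5.25 (median 3.43) and T1 by 2.38 to 5.51 (median 3.92), with no overlap of libraries in any member in either comparison, as in 12.3% and 16.6% of genes. Of the 9, 4 were called against T2, where 1.76% of genes were, and 7 against T1, where 2.22% were. The count against T2 was 1 without T2 replicate A or C or without any of the 3 T8 libraries, and the count against T1 was 0 without T1 replicate A or B and 1 without any of the 3 T8 libraries. At E-L 38 no member was called in T8 against T2 or T1 in limma, where 0.032% and 0.338% of genes were called higher, and 3 and 0 members had an unadjusted p under 0.05. The median difference was 2.12 from T2 and 0.44 from T1, and in 6 of the 9 the T8 libraries still lay above all T2 libraries, as in 8.23% of genes. Leaving out 1 library, the median difference from T1 ran from -0.31 (without T1 replicate A) to 1.23 (without T1 replicate B).

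From E-L 35 to 37 the direction of the median difference between T1 and T2 turned with single libraries. The median difference over the 9 members was 0.95, 0.38, -0.21 and 1.59 in the order of the stages from E-L 35 to 38. Leaving out 1 library, it ran from -0.41 (without T1 replicate C) to 1.77 (without T1 replicate A) at E-L 35, from -0.67 (without T1 replicate C) to 0.94 (without T2 replicate C) at E-L 36, and from -1.50 (without T1 replicate C) to 0.48 (without T2 replicate B) a stage later. At harvest it stayed above 0, from 0.84 (without T1 replicate B) to 2.27 (without T1 replicate A). No member was called at these 4 stages in limma, where 0.785%, 0.301%, 0.11% and 0.0411% of genes were called higher, and 1, 0, 0 and 1 members had an unadjusted p under 0.05. At E-L 35 replicate C set most of the T1 mean. Dc3 had 2.10, 2.46 and 92.3 FPKM in T1 there, against 1.42, 0.99 and 8.33 FPKM in T2, and the 7S globulin had 0.48, 3.02 and 189 FPKM in T1, against 2.54, 3.05 and 2.93 FPKM in T2.

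**Figure D3:**
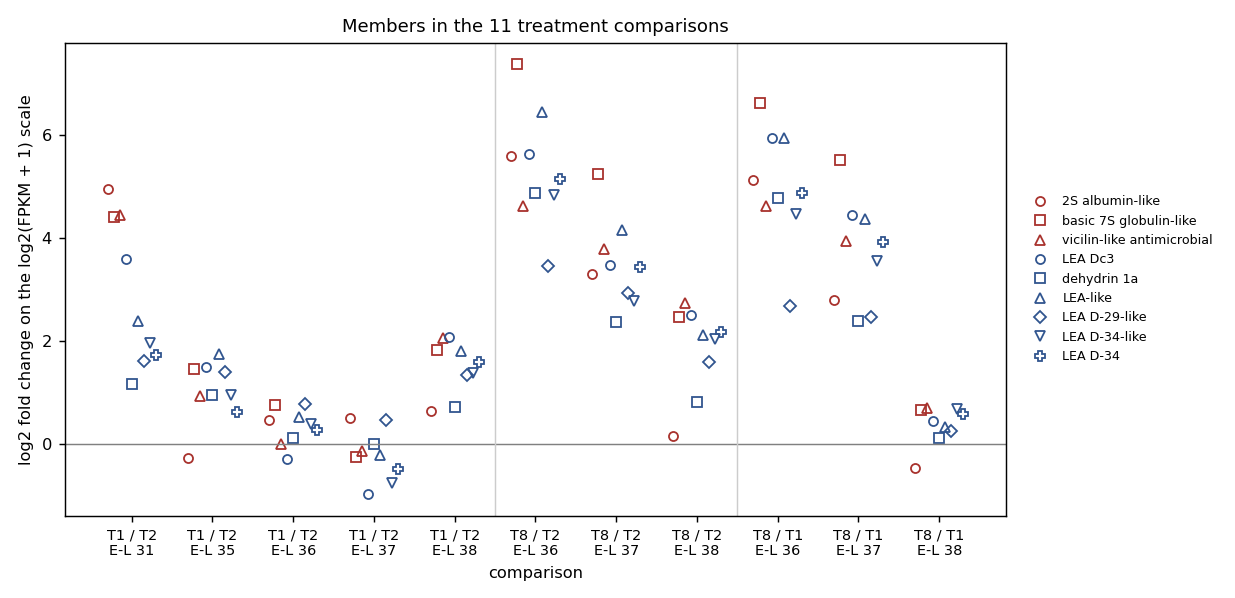
Difference in log2(FPKM + 1) of each of the 9 members in the 11 comparisons of treatments, storage genes in red and LEA genes in blue. The values run from 1.15 to 4.96 for T1 against T2 at E-L 31 and from 3.46 to 7.38 for T8 against T2 at E-L 36, and from -0.98 to 0.78 for T1 against T2 at E-L 36 and 37.

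Within the light-grown control, the storage transcripts passed through a peak at E-L 31. The 2S albumin averaged 39.9 ± 37.4 FPKM at E-L 29, 1898 ± 3020 FPKM at E-L 31, 4.44 ± 1.09 FPKM at E-L 35 and 0.26 ± 0.44 FPKM at E-L 36 (SD, n = 3 each). Most of the mean at E-L 31 came from replicate C. The 3 storage members were called higher at E-L 31 than at E-L 29, by 2.69 to 5.94, where 6.28% of genes were called higher and 11.9% lower. Without T2 replicate C of E-L 31 only 1 member was called there and the median over the 9 was 1.27, and without replicate B of that stage 5 were called. The same 3 were called lower at E-L 35 than at E-L 31, with log2 differences of -6.56 to -2.65, where 14.2% of genes were called lower. No LEA member was called in either step. At the 3 later steps, each stage against the one before, no member was called lower in limma, where 2.78%, 2.94% and 4.26% of genes were called lower, and none had an unadjusted p under 0.05 for a decrease. The gene VIT_214s0030g01470 was listed at 0 in all 3 T2 libraries at E-L 29.

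Ordered by group mean, the 3 storage members were highest in T1 at E-L 31, and all T1 libraries lay above the group that came next. In the 2S albumin and the 7S globulin that was T2 at E-L 31, and T8 at E-L 36, the next in the order, overlapped it. In the vicilin-like gene T8 at E-L 36 came next, ahead of T8 at E-L 37. All 6 LEA members were highest in T8 at E-L 36, and in 5 of them that group overlapped the next one in the order, which was T1 at E-L 31 for Dc3 and T8 at E-L 37 for 4 others. Of the 13 pairs of neighbouring groups in each gene's order, only 1 or 2 were free of overlap, so most neighbouring places are not resolved with 3 libraries. Groups farther apart in the order can still lie apart. In dehydrin 1a the lowest T2 library of E-L 38 had 243.7 FPKM, against 85.48 FPKM in the highest T2 library of E-L 35.

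The balance of both classes differed between the 2 peaks. Summed over members, storage transcripts made up 1.67%, 7.59% and 5.09% of the total FPKM in T1 at E-L 31, against 0.0531%, 0.0372% and 1.45% in T2, while LEA transcripts made up 0.0207%, 0.102% and 0.0406% in T1. The ratio of the storage sum to the LEA sum was 80.8, 74.5 and 125 in T1 at E-L 31, against 7.09, 11.5 and 64.9 in T2 at that stage. In T8 the LEA sum was the larger, with ratios of 0.349, 0.202 and 0.129 in the libraries of E-L 36, and of 0.194, 0.216 and 0.191 a stage later. Within the storage class the albumin to globulin ratio was 1.52, 2.46 and 2.35 in T1 at E-L 31, against 0.937, 2.07 and 1.44 in T2, while T8 had 0.486, 0.264 and 0.0242 at E-L 36. These are sums of FPKM, which are scaled to length, so the ratios compare transcript levels.

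**Figure D4:**
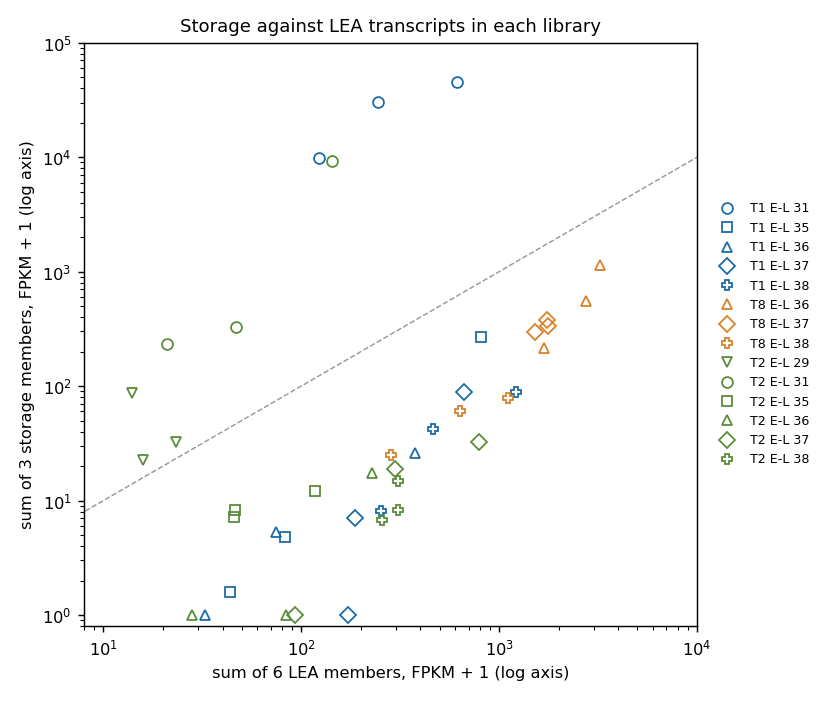
Sum of the 3 storage transcripts against the sum of the 6 LEA transcripts in each of the 42 libraries, FPKM + 1 on log axes, with colour for treatment, symbol for stage and a dashed line where both sums are equal. The E-L 29 and 31 libraries lie above the line and all later ones below it, with T8 at E-L 36 and 37 at the right (LEA sums of 1519 to 3242 FPKM).

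The 9 genes rose and fell together among the replicates of a group, the 2S albumin less closely than the others. For each gene the deviation of each library from its group mean in log2(FPKM + 1) was taken, and each member's deviations were correlated with the mean of the other 8 over the 42 libraries, which share groups and library preparation. Pearson's r was 0.893 to 0.965 for 8 members and 0.535 for the 2S albumin. Between pairs of LEA members r ran from 0.816 to 0.96 with a median of 0.898, and the 7S globulin and the vicilin-like gene reached 0.932. The libraries with the largest positive mean deviation were T1 replicate C at E-L 35 (2.94 on the log2 scale), T2 replicate C at E-L 31 (2.04), T1 replicate C at E-L 37 (1.82) and T1 replicate C at E-L 36 (1.69). T2 replicate A at E-L 36 and T1 replicate B at E-L 36 each had 5 of the 9 listed at 0, while replicate C of either group had none at 0. The T8 libraries at E-L 37 lay close together, with mean deviations between -0.15 and 0.18.

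Other annotated seed maturation genes were described in the same 42 libraries, with the members left out. They are no independent check, since 7 of the 29 tested deviated with the members at r of at least 0.8. A set of 4 lists was drawn from the annotation, with 40 genes in all, of which 29 passed the filter on low values and the other 11 had means under 1 FPKM in every group. They hold further seed storage genes (5 of 13 tested), further LEA and seed maturation genes (5 of 8), genes with the gene ontology term for the oil body that stores lipid in seeds (7 of 7) and genes of desiccation tolerance and raffinose sugars (12 of 12). The lists were drawn with results of these data known, and their counts stand beside those of all genes as a description. The genes named from each list were those of lowest adjusted p in these same comparisons, so their p-values are a description as well. For comparisons of treatments no share of all genes called lower is given, and nothing is read from the counts called lower there.

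At E-L 36 in T8 against T2, 11 of the 29 were called higher, where 3.67% of genes were, and 1 lower. They were 3 LEA and seed maturation genes, 6 of the 7 oil body genes and 2 desiccation genes, and none of the 5 storage genes. The storage list was drawn by annotation text and leaves out genes without a named function. In a broader list by the gene ontology term for nutrient reservoir activity, given under the other observations, 9 of 38 tested genes were called higher. That list also holds genes that are not storage proteins, and the germin-like VIT_214s0128g00570 and VIT_214s0128g00620 were among the 9. The median difference was 3.40 in the LEA list, 2.95 in the oil body list, 0.19 in the desiccation list and -0.15 in the storage list, against 0.07 over all genes. The 18 kDa seed maturation protein (VIT_208s0007g06420) averaged 122 FPKM in T8 and 2.51 FPKM in T2 (log2 difference 5.79 ± 1.34, adjusted p = 0.0032 in limma, no overlap). The D-34-like gene VIT_207s0151g00840 averaged 30.2 FPKM in T8 and 2.05 FPKM in T2 (3.40 ± 0.38, adjusted p = 7.1e-07).

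Of the desiccation genes, 1-Cys peroxiredoxin (VIT_205s0020g00600), an antioxidant enzyme of dry seeds, averaged 191 FPKM in T8 and 3.66 FPKM in T2 at E-L 36 (6.08 ± 1.43, adjusted p = 0.0039 in limma). The aquaporin TIP3-2-like (VIT_216s0039g00220), from a family that sits in the storage vacuole membrane of seeds, averaged 92.3 FPKM in T8 and 2.60 FPKM in T2 (5.19 ± 1.15, adjusted p = 0.0022). None of the 10 other genes of that list, which encode enzymes of raffinose and stachyose synthesis, was called at this stage. Among the oil body genes, which the annotation leaves without a name, VIT_217s0000g04210 averaged 22.5 FPKM in T8 and 0.56 FPKM in T2 (3.86 ± 0.59, adjusted p = 3.8e-05). The 1 gene called lower was a glutelin type-B 5-like gene (VIT_212s0034g01910) of the storage list, with 10.5 FPKM in T8 and 67.3 FPKM in T2 (-2.58 ± 0.65, adjusted p = 0.0069).

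Against T1 at E-L 36, 9 of the 29 were called higher in T8, where 2.79% of genes were, and at E-L 37 2 were called higher than in T2, where 1.76% of genes were, and 6 higher than in T1, where 2.22% were. The 9 fell to 4 without T1 replicate A at E-L 36 and to 3 without T1 replicate B or T8 replicate A, and the 6 fell to 2 or 3 without any of T1 replicates A and B or the 3 T8 libraries at E-L 37. At E-L 38 none was called in T8 against T2 or T1 in limma, where 0.032% and 0.338% of genes were called higher. There 2 and 1 had an unadjusted p under 0.05 for an increase, and 1 and 2 for a decrease. No share of all genes is given for the unadjusted counts, and nothing is read from them. The change of the T8 effect between E-L 36 and 38 was tested as a contrast of the same fit, and 3 of the 29 differed, where 2.43% of genes did.

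At E-L 31 in T1 against T2, 4 of the 29 were called higher, where 2.71% of genes were, and 1 lower. Of these, 3 were oil body genes, among them VIT_214s0066g00700 with 526 FPKM in T1 and 95.0 FPKM in T2 (4.11 ± 0.81, adjusted p = 0.00025 in limma, libraries overlapping) and VIT_202s0234g00110 with 158 FPKM in T1 and 27.2 FPKM in T2 (3.50 ± 0.67, adjusted p = 0.00018, no overlap). The other was TIP3-2-like (VIT_216s0039g00220), with 147 FPKM in T1 and 17.6 FPKM in T2 (3.72 ± 1.15, adjusted p = 0.014). The gene called lower, a galactinol-sucrose galactosyltransferase (VIT_200s0878g00020) of raffinose synthesis, had 1.51 FPKM in T1 and 4.37 FPKM in T2 (-1.10 ± 0.22, adjusted p = 0.00037). Lea14-A (VIT_215s0046g02110), a LEA protein of another class, had 316 FPKM in T1 and 575 FPKM in T2 (-0.98 ± 0.24, adjusted p = 0.0021), short of the fold required. In the storage list, a further 7S globulin-like gene (VIT_207s0005g04460) had 23.8 FPKM in T1 and 14.1 FPKM in T2 (0.68 ± 0.13, adjusted p = 0.00016), and another (VIT_214s0128g00210) had 0.81 FPKM in T1 and 0.23 FPKM in T2 (0.56 ± 0.17, adjusted p = 0.013), both again under the fold required. The count of 4 was 2 without T2 replicate A or B, 6 without T2 replicate C and 0 in a fit of only those 6 libraries.

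At the 4 later stages none of the 29 was called higher in T1 against T2 in limma, where 0.785%, 0.301%, 0.11% and 0.0411% of genes were, and 4, 1, 1 and 1 had an unadjusted p under 0.05 for an increase. The change of the T1 effect between E-L 31 and 36 differed in 3 of the 29, where 15.8% of genes did. In the light-grown control 3 of the 29 were called higher and 4 lower at E-L 31 than at E-L 29, where 6.28% and 11.9% of genes were. The 3 became 0 without T2 replicate C of E-L 31 and 1 without T2 replicate B or C of E-L 29. At the next step, E-L 35 against 31, 5 were higher and 2 lower, where 3.7% and 14.2% of genes were. At the last 3 steps 0, 1 and 0 were called higher, where 1.09%, 3.45% and 0.808% of genes were, and 2, 1 and 1 lower, where 2.78%, 2.94% and 4.26% were. In limma 2, 6 and 2 of the 29 had an unadjusted p under 0.05 for an increase at these last 3 steps. Lea14-A (VIT_215s0046g02110) was called lower at each of the 4 steps after E-L 31, with means of 575, 168, 83.4, 19.8 and 7.58 FPKM in T2 in the order of the stages from E-L 31 on.

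**Figure D5:**
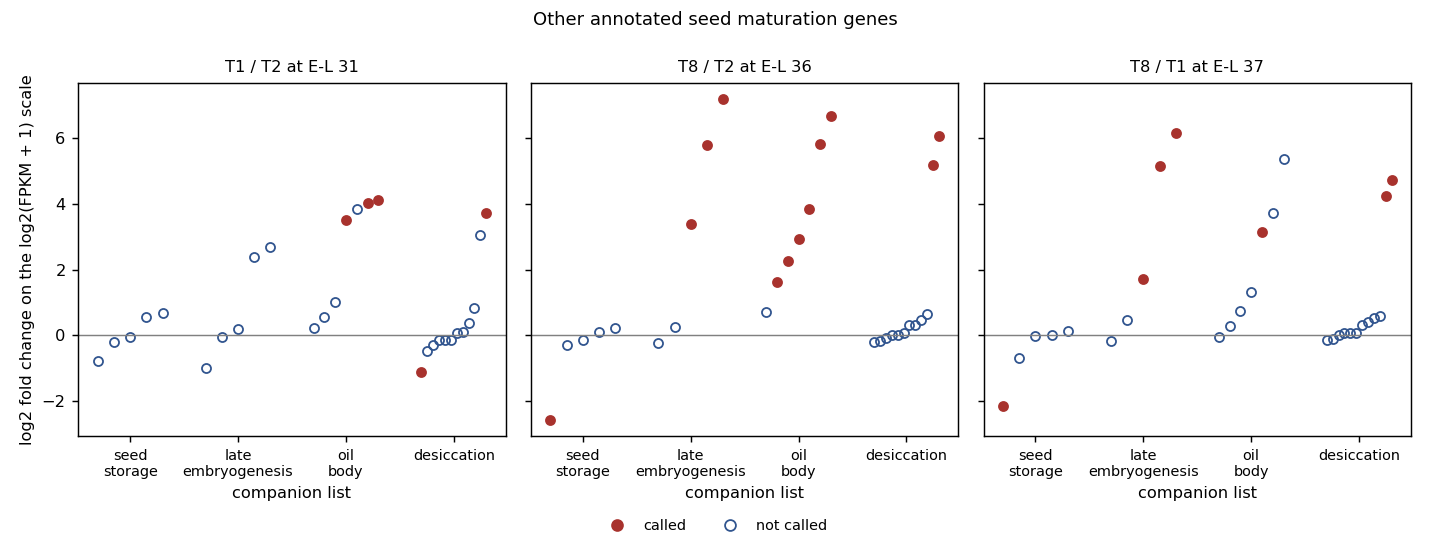
Difference in log2(FPKM + 1) of the 29 other seed maturation genes tested, by list, for T1 against T2 at E-L 31, T8 against T2 at E-L 36 and T8 against T1 at E-L 37, with filled red points for genes called (adjusted p under 0.05 and at least 1 in size). In T8 against T2 at E-L 36 the called genes lie in the late embryogenesis, oil body and desiccation lists, and the glutelin gene at -2.58 is the only point called lower.

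Markers found by annotation gave the following sums. The 9 embryo and maturation regulators summed to 86.5 to 253 FPKM in T1 at E-L 31, against 64.6 to 95.9 FPKM in T2, and to 97.4 to 101 FPKM in T8 at E-L 36, against 86.8 to 92.4 FPKM in T2. A list meant for seed coat, ovule and endosperm held 9 genes, of which 7 are annotated as anthocyanidin reductase or leucoanthocyanidin reductase, enzymes of flavan-3-ol synthesis that berry skin also expresses, so its sum does not mark seed tissue. It was 65.0 to 161 FPKM in T1 at E-L 31, against 33.5 to 65.3 FPKM in T2, and 25.7 to 49.0 FPKM in T8 at E-L 36, against 9.43 to 9.79 FPKM in T2. Of the regulators, 0 and 1 had no value above 0 in T1 and T2 at E-L 31 and 1 each in T8 and T2 at E-L 36, and of the second list 3 each and 2 each. The other 2 genes of that list are annotated as AGL62, which acts in endosperm in Arabidopsis, and had means of at most 0.0967 FPKM in any group. The 26 berry skin and flesh genes summed to 316 to 535 FPKM in T1 at E-L 31, against 553 to 1179 FPKM in T2, and overlapped at E-L 36. The part of seed tissue in the levels of the 9 members was not tested.

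Of the 8 regulators tested, only 2 were called higher at E-L 31 in T1 than in T2, where 2.71% of genes were. The median difference over the 8 was 0.13 on the log2 scale. The 2 were a pair of genes for subunit B-6 of nuclear transcription factor Y, related to the Arabidopsis embryo regulator LEC1. In T8 against T2 at E-L 36, 1 of the 8 was called higher, where 3.67% of genes were, and the highest difference was 1.27. VIT_219s0015g00590 had 3.45 to 26.86 FPKM in T1 at E-L 31 and 0 to 2.99 FPKM in T2 (2.78 ± 0.37, adjusted p = 9.5e-07 in limma, no overlap), and was listed at 0 in all 3 T8 libraries at E-L 36, 37 and 38. VIT_200s0956g00020 had 15.15 to 152 FPKM in T1 at E-L 31 and 0.40 to 21.92 FPKM in T2 (3.57 ± 0.63, adjusted p = 6.5e-05, with overlap), and averaged 1.84 ± 1.25 FPKM in T8 at E-L 36, against 1.02 ± 0.77 FPKM in T2 (SD, n = 3 each).

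Many other genes varied between libraries as the members did. Of the genes tested, 55 beyond the members had deviations that correlated at r of at least 0.9 with the mean of the 9 over the 42 libraries, and 110 at r of at least 0.8, among them 7 of the 29 seed maturation genes above. Of the 6318 with a named function, the 3 most alike were the 18 kDa seed maturation protein (VIT_208s0007g06420, r = 0.975), 1-Cys peroxiredoxin (VIT_205s0020g00600, r = 0.975) and TIP3-2-like (VIT_216s0039g00220, r = 0.974). The next were a probable glycosyltransferase (VIT_208s0007g04250, r = 0.958) and a MADS-box transcription factor 3 (VIT_218s0001g09540, r = 0.951). The other 10 included a second 18 kDa seed maturation protein gene (VIT_208s0007g06430, r = 0.936), a 17.6 kDa class I heat shock protein (VIT_218s0001g01610, r = 0.931), which protects other proteins from aggregation, a cysteine proteinase 15A-like gene (VIT_213s0019g05120, r = 0.923) and a gibberellin-regulated protein (VIT_201s0026g00620, r = 0.897). Among the rest were genes annotated as a hydroxysteroid dehydrogenase (VIT_218s0001g06750, r = 0.942), a cinnamyl alcohol dehydrogenase (VIT_204s0044g00210, r = 0.94), an aldose reductase (VIT_208s0058g00650, r = 0.921), a serine- and threonine-rich protein (VIT_203s0038g03840, r = 0.903) and a universal stress protein A-like protein (VIT_208s0032g00590, r = 0.899). An endochitinase-like gene (VIT_200s1290g00010, r = 0.928) averaged 14028 FPKM in T1 at E-L 31, its highest group. Of the 15 genes most alike with or without a name, 12 had no named function. These correlations describe 42 libraries that share their groups of 3, and 14 of the 15 named genes most alike by r were also among the 15 by Spearman's rho.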

How the data were processed

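RNA-seq libraries of 42 samples in 14 groups were analysed. The authors mapped single-end reads of poly(A) RNA on the PN40024 reference (version 2) and deposited FPKM per gene and library for 28940 genes, rounded to 2 decimals. The study's methods name Bowtie as the aligner and the submitters' processing notes name Bowtie2 2.2.5. The counting tool is not given in the sources used here, and low FPKM values fell on no clear steps, so no read counts were recovered.

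Values were analysed as log2(FPKM + 1) with limma 3.58.1 in R 4.3.3, in one fit of the 14 group means (28 residual degrees of freedom, mean-variance trend, two-sided). Benjamini-Hochberg adjustment ran over the 21902 genes whose mean reached 1 FPKM in any group. A call needs an adjusted p under 0.05 and a log2 difference of at least 1, and a difference between 2 effects an adjusted p under 0.05. The fit was tested on simulated data. Python 3.11.15, numpy 2.4.6, pandas 2.3.3 and matplotlib 3.10.9 served for the rest.

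The members and lists were chosen with earlier results of these data known. Lists were drawn by annotation text, except the oil body list, drawn by its gene ontology component term after the files were read, since no annotation text matched oleosin or caleosin. Gene names are the first BLAST hit in the deposited table. Named were, per list, the 3 genes of lowest adjusted p in the 11 treatment comparisons, and the 15 genes with a named function most alike to the members. The pair of nuclear factor Y genes and the other genes of the closing section were chosen after their values were seen. A RefSeq symbol was found for 7 of the 9 members by protein accession, in a table of another assembly, and no coordinates were taken from it. Replicate letters did not pair the libraries: the mean r of residuals between groups was 0.00222 for libraries sharing a letter and -0.00108 for the rest. Alternatives were a pseudocount of 0.1, no filter, a filter of 5 FPKM, median-of-ratios scaling, a replicate block, a fit of only the groups compared, and leaving out each library.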

Additional observations from a re-analysis of the deposited data

Results flagged for a closer look

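The effect of bagging on 6 other seed maturation genes differed between 2 stages by a contrast of the limma fit (adjusted p under 0.05, no fold threshold). They were 3 of the 29 for the T1 effect, where 15.8% of all genes differed, and 3 of the 29 for the T8 effect, where 2.43% did. The T1 effect at E-L 31 minus that at E-L 36 was 2.79 ± 0.95 in the oil body gene VIT_202s0234g00110 (adjusted p = 0.041 in limma), -1.41 ± 0.34 in Lea14-A (VIT_215s0046g02110, adjusted p = 0.0045) and -0.98 ± 0.32 in the galactosyltransferase VIT_200s0878g00020 (adjusted p = 0.033), all on the log2 scale.

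The T8 effect at E-L 36 minus that at E-L 38 was 2.71 ± 0.53 in the D-34-like gene VIT_207s0151g00840 (adjusted p = 0.0039 in limma), 0.69 ± 0.18 in the oil body gene VIT_208s0007g05800 (adjusted p = 0.038) and 0.60 ± 0.16 in the galactosyltransferase VIT_211s0016g05770 (adjusted p = 0.039). In the last of these neither T8 effect was called by itself, with 157 FPKM in T8 and 127 FPKM in T2 at E-L 36, and 194 FPKM in T8 and 239 FPKM in T2 at E-L 38.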

How the results depend on the processing

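Where counts of called genes moved by over 1.5 times, they did so as follows, with "others" for the 29 other seed maturation genes. For T1 against T2 at E-L 31, the 5 members became 3 with a pseudocount of 0.1, 3 without a filter, 0 with only those groups in the fit and 2 to 6 leaving out 1 library, and the 4 others became 0 with only those groups and 2 to 6. For T8 against T2 at E-L 37, the 4 members became 1, 1, 2 and 1 to 5 under the same settings, and the 2 others became 1 with only those groups and 1 to 3 (1 without T2 replicate C). For T8 against T1 at E-L 36, the 9 members became 2 with only those groups and 6 to 9, and the 9 others 2 and 3 to 9. For T8 against T1 at E-L 37, the 7 members became 2 with the pseudocount, 0 with only those groups and 0 to 7, and the 6 others became 2 with only those groups and 2 to 7. For genes called higher in T2, the 3 members at E-L 31 became 1 to 5 (1 without T2 replicate C and 5 without T2 replicate B of E-L 31), and the 3 others became 1 with only those groups and 0 to 4. At E-L 36 the 0 others became 1 with only those groups, and at E-L 37 the 0 members became 0 to 1 and the 1 other 1 to 2 (the higher count without T2 replicate C of either stage). For genes called lower in T2, the 4 others at E-L 31 became 7 and the 2 at E-L 35 became 5 with the pseudocount (2 to 4 leaving out 1 library, 4 without T2 replicate B of E-L 31). At E-L 36 the 2 others became 0 to 2 (0 without T2 replicate C of E-L 35, 1 without T2 replicate B or C of E-L 36), and 1 member was called lower with only those groups. At E-L 38 the 1 other became 2 with only those groups. The 3 others whose T1 effect differed became 1 with the pseudocount, 0 with only those groups and 1 to 4 leaving out 1 library (1 without T2 replicate A of E-L 31 or replicate C of T1 or T2 of E-L 36). The 3 whose T8 effect differed became 1 with median-of-ratios scaling, 7 with only those groups and 1 to 4 (1 without T2 replicate B or C or T8 replicate A of E-L 36, or without T2 replicate A or B or T8 replicate C of E-L 38). In T8 against T2 at E-L 36 the counts were 9 of the 9 members under every setting but 2, leaving out T8 replicate A and only those groups in the fit (8 each), and 9 to 11 of the others. A fit of only the groups compared has 4 residual degrees of freedom in a comparison of 2 groups. The cause of the other changes was not tested.

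The fit with a replicate block changed no count by over 1.5 times, with 5 members for T1 against T2 at E-L 31, and for T8 against T2 9 at E-L 36 and then 5 a stage later. The letters do not pair the libraries: 17 of 42 libraries correlated best with a library of their own letter. Median-of-ratios scaling moved the median of all genes by over 0.1 in the T2 comparisons of E-L 35 with 31 (-0.06 in place of -0.22) and of E-L 37 with 36 (0 in place of 0.16). No difference changed its sign past the threshold. With 3 libraries a group and no read counts, differences at levels near 0 FPKM are not resolved.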

Other observations

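A broader list, the 38 tested genes with the gene ontology term for nutrient reservoir activity, leaves the 9 members out. Besides storage proteins it holds germin-like proteins and others, such as a vacuolar ATPase subunit and an auxin-binding protein. It shares the glutelin genes VIT_206s0004g04060 and VIT_212s0034g01910 with the storage list above. At E-L 36, 9 of the 38 were called higher in T8 than in T2 in limma, where 3.67% of genes were, and 1 lower. The 1 called lower is VIT_212s0034g01910, already given above. Against T1 11 were higher, where 2.79% of genes were, and none lower (0 lower at an unadjusted p under 0.05). At E-L 37, 7 were higher than in T2, where 1.76% of genes were, and 1 lower. The largest difference at E-L 36 was in VIT_207s0151g00640, a gene without a named function, with a mean of 3791 FPKM in T8 and 40.5 FPKM in T2 (8.41 on the log2 scale, adjusted p = 0.0043 in limma). The germin-like protein VIT_214s0128g00570 had 532 FPKM in T8 and 35.8 FPKM in T2 (4.31, SE 0.82, adjusted p = 0.00049), and another, VIT_214s0128g00620, had 178 FPKM in T8 and 12.6 FPKM in T2 (4.19, SE 0.89, adjusted p = 0.0015). For T1 against T2 at E-L 31, 3 of the 38 were called higher, where 2.71% of genes were, and 2 lower. At E-L 35 none was called higher, where 0.785% of genes were, with 5 at an unadjusted p under 0.05 for an increase, and 5 were called lower. The share of all genes called lower is not given for comparisons of treatments, so nothing is read from the counts called lower. The list was added after the data had been seen.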
